A study of Homo sapiens with 4 samples.

Results

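The lysosome and autophagy genes described here are 44 genes, found by symbol among the 28412 genes of a deposited expression table. They comprise 3 MiT/TFE transcription factors, 4 lysosomal membrane proteins, 8 cathepsins, 7 other hydrolases, 2 hydrolase cofactors, 6 parts of the proton pump, 11 autophagy genes and 3 Rag GTPases. All 44 had a row in the table, and 42 passed the filter on low values, which asked for 1 FPKM or more on average. LIPA and RRAGD did not pass it and were not tested. The genes were chosen by function, not by a threshold on the values measured here, but with earlier results of these data known.

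RNA-seq was carried out on cells labelled NB4, a human acute promyelocytic leukemia line. Of the 4 libraries, 2 came from cells with the control vector sh-NC (the control libraries) and 2 from cells with an shRNA against LDB1, sh-LDB1 (the knockdown libraries). LDB1 is the LIM domain-binding adaptor that joins LMO2 and its partner transcription factors. According to the study's methods, the shRNAs were delivered by a lentiviral pLKO.1 vector and infected cells were selected with puromycin, so both groups had been infected and selected. The methods give 1 schedule of infection and selection for several experiments without naming RNA-seq, and which LDB1 shRNA was sequenced is not stated, so an effect of that shRNA on another transcript cannot be told apart from the loss of LDB1. Levels were given as FPKM, fragments per kilobase of gene scaled by library depth. A comparison between genes rests on the gene lengths the authors used, which are not given. Fitted lengths of the members ran from 1589 bases (RRAGA) to 12611 bases (HEXA). Ranks, shares and ratios between genes below are therefore of FPKM only. The depth, recovered from the steps of the FPKM values, was about 14.8M to 17.2M reads per library and rests on fitted gene lengths. LDB1 itself was at 135.1 and 120.1 FPKM in the control libraries and at 10.2 and 9.47 FPKM in the knockdown libraries, which left 7.73% of the control level. The labels do not say whether the 2 libraries of a group came from separate cultures, so the p-values measure only the spread between these libraries, which may be technical.

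Lysosomes are acidic compartments in which hydrolases break down protein, sugar chains and lipid. The V-ATPase, a proton pump in the membrane, supplies the acid, and autophagy delivers cytoplasm and organelles to the lysosome in double-membraned vesicles. The transcription factors TFEB, TFE3 and MITF bind the CLEAR element in the promoters of many of these genes, and they are themselves held in the cytoplasm by mTORC1, which the Rag GTPases recruit to the lysosomal surface. Promyelocytes and their myeloid descendants store proteases in granules that are related to lysosomes.

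The labelled cell type was compared with marker genes. Of 10 promyelocyte granule markers, 7 had values, and none had a mean above 3.12 FPKM. ELANE and BPI were listed at 0 FPKM in 3 libraries each, both being above 0 in sh-LDB1 replicate 1 (0.182 and 0.0746 FPKM), and MS4A3 was listed at 0 in both knockdown libraries. MPO, CTSG and RNASE3, the other markers on the list, had no row among the 28412 genes. Every gene listed was above 0 in at least 1 library, so a missing row may stand for 0 in every library. The summed level of these markers was 5.06 to 6.17 FPKM in the control libraries and 10.2 to 12.7 FPKM in the knockdown libraries. Erythroid markers stood far higher, with a sum over 12 genes of 3945 and 4103 FPKM in the control libraries and of 386.3 and 350.6 FPKM in the knockdown libraries. All 11 erythroid markers that were tested fell. The marker levels therefore did not match a promyelocytic line, the identity of the cells was not checked further, and every value below is of cells labelled NB4. Of 12 monocyte and macrophage markers, 8 had values and 6 of these were under 1 FPKM in every library, among them CD14 and CD68. Their sum was 6.52 and 6.54 FPKM in the control libraries and 25.3 and 25.1 FPKM in the knockdown libraries, carried mainly by LYZ and ITGAM, which both rose, ITGAM having passed the filter only through the knockdown libraries. These marker changes ran alongside every change described below, and their part in it was not tested. In RNA from whole cultures, fewer cells of a type and less RNA per cell cannot be told apart.

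To ask how the lysosome and autophagy genes responded to the knockdown, knockdown and control libraries were compared by limma on log2(FPKM + 1). A gene was called where the p-value, adjusted by Benjamini-Hochberg over all genes, was below 0.05 and the fold on that scale was above 2 or below 0.5. Of the 42 tested members, 10 were called higher and 3 lower. The higher genes were NEU1, CTSS, CTSB, SQSTM1, CTSA, TFE3, CTSD, CD63, RRAGA and MCOLN1, and the lower ones were CTSZ, GLB1 and CTSH. Over all 13300 genes tested, 9.5% were called higher and 10.3% lower, together 19.8%. All 13 called members were among the 37 members with a mean of at least 5 FPKM, and of all genes at that level 22.6% were called, 9.45% higher and 13.1% lower. That mean is over all 4 libraries. CTSS and MCOLN1 reached it only through the knockdown libraries, with control means of 1.01 and 4.23 FPKM. CTSH reached it only through the control libraries, its knockdown mean being 4.95 FPKM. The median log2 fold change of the members was 0.35, and that of all genes tested was -0.08. At an adjusted p-value below 0.05 with no fold threshold, 25 members were higher and 10 lower. That rule called 67.4% of all genes, 29.9% higher and 37.4% lower, so a call by it alone says little about a member. Control and knockdown values did not overlap for 38 of the 42 members, against 84.6% of all genes, 38.3% higher and 46.3% lower. The remaining 4 genes, whose libraries overlapped, were LAMP1, ATP6V1A, ATP6V1H and GABARAPL1.

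**Figure D1:**
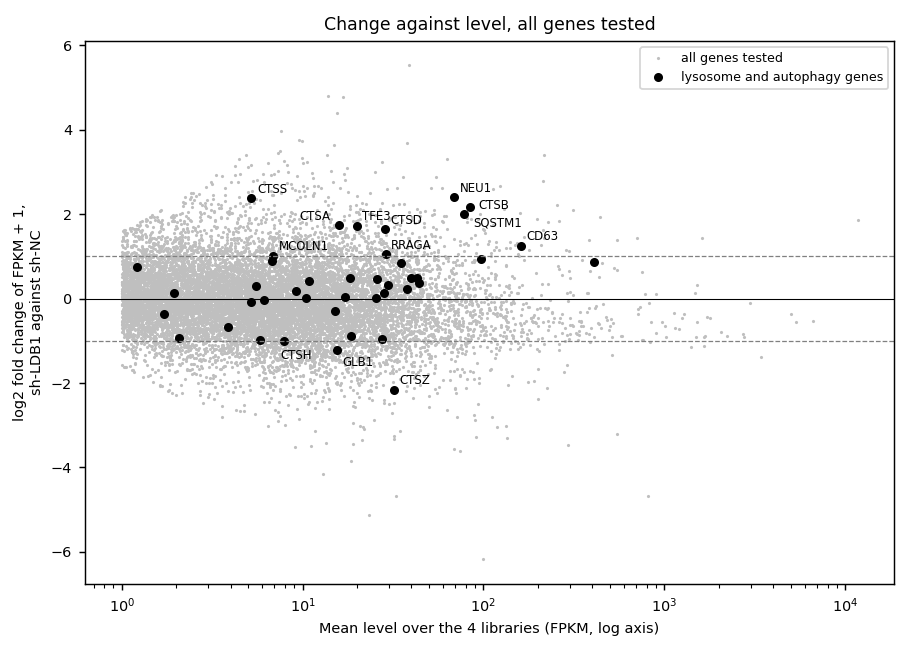
Change on the log2(FPKM + 1) scale (vertical axis) against the mean level over the 4 libraries in FPKM (horizontal log axis), for the 13300 genes tested (grey) and the 42 tested lysosome and autophagy genes (black). Dashed lines mark a change of 1 and -1 on the log2 scale, and names are given for the 13 members that were called, 10 above and 3 below.

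The regulators were examined first. TFE3 had the highest FPKM of the MiT/TFE factors. It was at 9.19 and 8.26 FPKM in the control libraries and at 31.1 and 31.2 FPKM in the knockdown libraries. Both knockdown libraries lay far above both control libraries, with a log2 fold change of 1.73 (SE 0.063, adjusted p = 0.000117 by limma). TFEB, the factor best known as master regulator of lysosomal genes, was low throughout, at 0.591 and 0.708 FPKM in the control libraries and at 1.82 and 1.72 FPKM in the knockdown libraries. Its mean was 2.73 times the control mean, but on the log2(FPKM + 1) scale the change was 0.75 (SE 0.131, adjusted p = 0.00711 by limma) and did not reach the fold threshold. With a pseudocount of 0.1 or 0.01 in place of 1 it was 1.32 or 1.44 and TFEB was called. TFEB passed the filter only through the knockdown libraries, its control mean being 0.65 FPKM, and it rested on 54 to 165 reads per library.

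MITF, which drives melanocyte and mast cell genes besides lysosomal ones, moved the other way. It was at 4.94 and 5.01 FPKM in the control libraries and at 3.01 and 2.52 FPKM in the knockdown libraries, a log2 fold change of -0.67 (SE 0.091, adjusted p = 0.00316 by limma), short of the fold threshold. TFE3 therefore took 62.4% and 59.1% of the summed FPKM of the 3 factors in the control libraries and 86.6% and 88.0% in the knockdown libraries, while the share of MITF went from 33.6% and 35.8% to 8.37% and 7.11%. TFEB held between 4.01% and 5.07% in every library.

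Promoters were read for the sequence that the MiT/TFE factors recognise. RefSeq windows on GRCh38.p14, from 250 bases before to 50 bases after the start, were found for 31 of the 44 members. No window was found for LAMP2, CTSB, CTSS, HEXA, PSAP, ATP6V0E1, ATP6V1A, ATP6V1B2, ATP6V1H, UVRAG, BNIP3L, RRAGA and RRAGD. The letters searched, on both strands, were CACGTG, the longer TCACGTG, which contains it and forms part of the CLEAR element, and a site of the GATA factors. That site was searched as AGATAA and contains neither of the others. CACGTG occurred in 7.43% of all 27305 windows and in 9 of the 31 members. By response, it occurred in 5 of the 7 windows of members called higher (NEU1, CTSA, CTSD, CD63 and MCOLN1), in 0 of the 3 of members called lower and in 4 of the 20 of members not called (LAMP1, GAA, ATP6V0D1 and RRAGC). TCACGTG occurred in 3.82% of all windows and in 8 members, which are these 9 without CD63. AGATAA occurred in 10.5% of all windows and in 1 member, CTSH, with 2 copies. A match is a description of the letters and not a site of binding, which was not measured here. The members and motifs were chosen with earlier results of these data known, and the CLEAR element is known from promoters of many such genes. The counts are therefore a description and were not tested. CTSB, CTSS and RRAGA, also called higher, had no window.

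The stretches around CACGTG are shown for the 4 members with the largest changes among those called higher whose window holds it. LAMP1 is added, chosen after its values were seen, because its window holds the most copies (6) while its level stayed within the replicate spread. The LAMP1 stretch leaves out the copies that begin 28 and 1 bases before the start. Each stretch runs 5′ to 3′ on the strand of the gene, lies before the RefSeq start, and has CACGTG in capitals. The NEU1 stretch is chr6:31862902-31862987 on the minus strand, that of CTSA is chr20:45891270-45891334 on the plus strand, that of CTSD is chr11:1763929-1764014 on the minus strand, that of CD63 is chr12:55729144-55729229 on the minus strand, and that of LAMP1 is chr13:113297037-113297112 on the plus strand.
NEU1: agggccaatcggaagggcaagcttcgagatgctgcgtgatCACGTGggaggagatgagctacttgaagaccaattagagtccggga
CTSA: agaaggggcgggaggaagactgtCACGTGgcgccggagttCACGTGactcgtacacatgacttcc
CTSD: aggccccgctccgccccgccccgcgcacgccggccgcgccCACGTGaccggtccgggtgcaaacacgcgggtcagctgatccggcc
CD63: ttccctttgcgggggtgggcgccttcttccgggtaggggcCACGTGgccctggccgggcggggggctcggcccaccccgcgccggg
LAMP1: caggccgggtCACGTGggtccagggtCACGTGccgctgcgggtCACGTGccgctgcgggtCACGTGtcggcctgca
The CTSA window has 2 copies close to the start, whereas those of NEU1, CTSD and CD63 have 1 copy before the start, beginning 126, 47 and 180 bases from it.

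The cathepsins, the main lysosomal proteases, split in both directions. Of the 8 genes, 4 were called higher and 2 lower. CTSB, a cysteine protease that cuts both within and at the end of proteins, was at 30.1 and 29.9 FPKM in the control libraries and at 138.1 and 138 FPKM in the knockdown libraries (log2 fold change 2.17 ± 0.0372, SE, limma adjusted p = 6.77e-05). CTSS, the cysteine protease known for trimming the invariant chain of MHC class II in antigen-presenting cells, was near the filter in the control libraries, at 0.906 and 1.11 FPKM, and at 9.43 and 9.44 FPKM in the knockdown libraries. The log2 change was 2.38, standard error 0.0827 (limma, adjusted p = 0.000112), although the ratio of the mean FPKM was 9.38, since the pseudocount shrinks the change of a low gene. CTSD, the aspartic protease of the lysosome, went from 13.1 and 13.4 FPKM to 42.5 and 44.9 FPKM, a log2 fold change of 1.65. CTSA, a serine carboxypeptidase that also protects 2 glycosidases, went from 6.48 and 7.12 FPKM to 25.3 and 24.6 FPKM, a log2 fold change of 1.73. In each of these genes both knockdown libraries were at least 3 times every control library.

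CTSZ (cathepsin X), a carboxypeptidase, had the largest fall among the tested members. It was at 56.1 and 49.9 FPKM in the control libraries and at 10.7 and 11.5 FPKM in the knockdown libraries, with a log2 fold change of -2.16 (SE 0.0762, adjusted p = 0.000115 by limma). CTSH, an aminopeptidase, went from 11.5 and 10.4 FPKM to 4.89 and 5.0 FPKM. Its log2 fold change of -1.0 sat on the threshold and the call was lost when libraries were scaled to equal summed FPKM (-0.85) or by a median of ratios over the genes tested (-0.92), and also without sh-NC replicate 1 (-0.94) or sh-LDB1 replicate 1 (-0.99). CTSL, an endopeptidase with the highest FPKM of the cathepsins in the control libraries, went from 70.2 and 63.0 FPKM to 127.8 and 126.6 FPKM. Its recovered control reads (2689 and 2197) were fewer than those of CTSB (3619 and 3270) and CTSC (3128 and 2806), whose fitted lengths are longer. The change of CTSL stayed under the threshold at 0.93. It passed the threshold at 1.0 without sh-NC replicate 1 and under both of these scalings (1.1 and 1.02). CTSC, the dipeptidyl peptidase that activates granule proteases, was at 16.9 and 16.7 FPKM in the control libraries and at 13.6 and 13.4 FPKM in the knockdown libraries, a log2 fold change of -0.30 with a 95% interval from -0.42 to -0.17.

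The summed level of the 8 cathepsins was 205.4 and 191.4 FPKM in the control libraries and 372.3 and 373.4 FPKM in the knockdown libraries, and its makeup changed. CTSZ held 27.3% and 26.1% of the sum in the control libraries and 2.87% and 3.08% in the knockdown libraries. The share of CTSB went from 14.7% and 15.6% to 37.1% and 36.9%. CTSL kept its share, at 32.9% to 34.3% in every library. Within a library the ratio of CTSB to CTSZ, which does not depend on how libraries are scaled, was 0.537 and 0.598 in the control libraries and 12.9 and 12 in the knockdown libraries. With 2 libraries per group an exact two-sided permutation test of such a ratio cannot go below p = 0.333, so the ratios are given as values only.

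**Figure D2:**
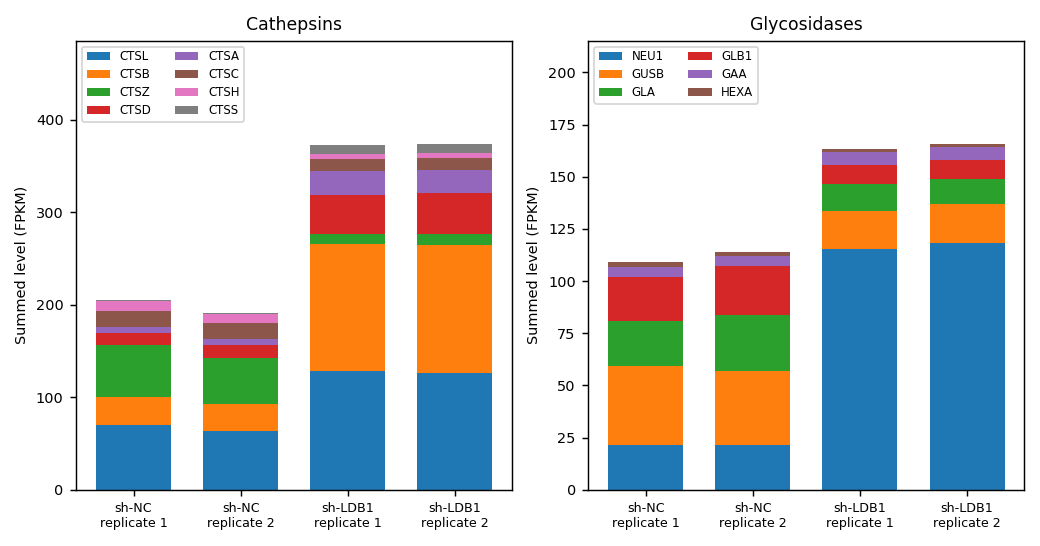
Stacked levels in FPKM of the 8 cathepsins (left) and of 6 glycosidases (right) in each of the 4 libraries, the bars starting at 0. Both sums were larger in sh-LDB1, where CTSB and NEU1 grew while CTSZ, GUSB, GLA and GLB1 shrank.

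Among the glycosidases, enzymes that trim sugar chains, 1 of 6 tested was called higher and 1 lower. NEU1, the lysosomal sialidase that removes terminal sialic acid, had, with CTSS, the largest rise among the tested members, and which of them came first depended on the pseudocount. It stood at 21.2 and 21.3 FPKM in the control libraries and at 115.5 and 118 FPKM in the knockdown libraries (log2 fold change 2.40 ± 0.0389, SE, limma adjusted p = 6.77e-05). GLB1, the beta-galactosidase, went from 21.0 and 23.2 FPKM to 8.97 and 8.83 FPKM (log2 fold change -1.22 ± 0.0634, SE, limma adjusted p = 0.000212). NEU1, GLB1 and CTSA are known to form a complex in the lysosome, in which CTSA shields the other members from degradation. The transcripts of this complex did not move as a block. The ratio of NEU1 to GLB1 was 1.01 and 0.92 in the control libraries and 12.9 and 13.4 in the knockdown libraries, and that of CTSA to GLB1 was 0.308 and 0.307 in the control libraries and 2.82 and 2.79 in the knockdown libraries. The ratio of NEU1 to CTSA moved less, from 3.28 and 2.99 to 4.58 and 4.79.

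The other glycosidases did not pass the fold threshold. GUSB, the beta-glucuronidase, was at 38.0 and 35.7 FPKM in the control libraries and at 18.1 and 18.9 FPKM in the knockdown libraries, just short of the threshold at -0.96 and past it without sh-NC replicate 2 (-1.0). GLA, the alpha-galactosidase, went from 21.8 and 26.8 FPKM to 13.1 and 12.2 FPKM, a log2 fold change of -0.88 that was -1.03 without sh-NC replicate 1. HEXA, the alpha subunit of hexosaminidase, changed by -0.37 on the log2 scale. GAA, the acid alpha-glucosidase, was higher, from 4.82 and 4.88 FPKM to 6.10 and 6.24 FPKM, a log2 change of 0.29 (adjusted p = 0.01 by limma). LIPA, the acid lipase that frees cholesterol from its esters, was close to absent, with 1 and 3 reads in the control libraries and 0 in both knockdown libraries, so no fold is given.

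The cofactor PSAP, whose product is cut into the saposins that present lipids to hydrolases, was the most abundant member. It was at 291.1 and 289.3 FPKM in the control libraries and at 528.4 and 532.6 FPKM in the knockdown libraries. The log2 change was 0.87 with a 95% interval from 0.76 to 0.97, below the threshold and with no overlap between groups. GRN, the precursor of granulins, was at 40.2 and 36.5 FPKM in the control libraries and at 49.9 and 49.7 FPKM in the knockdown libraries, a log2 fold change of 0.37.

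Of the membrane proteins, CD63 and MCOLN1 were called higher. CD63, a tetraspanin of late endosomes and granules, was at 106.6 and 85.6 FPKM in the control libraries and at 228.6 and 228 FPKM in the knockdown libraries (log2 fold change 1.25 ± 0.112, SE, limma adjusted p = 0.000883). Its control libraries differed more from each other than those of any other tested member. MCOLN1, the calcium channel of the lysosome, went from 4.58 and 3.87 FPKM to 9.21 and 9.87 FPKM. Its log2 fold change of 1.02 fell to 0.92 without sh-NC replicate 2 and to 0.97 without sh-LDB1 replicate 2, both under the threshold. The LAMP proteins form the sugar coat of the lysosomal membrane, and their transcripts differed in response. LAMP2 went from 23.5 and 26.0 FPKM to 46.5 and 43.4 FPKM, a log2 fold change of 0.84 with a 95% interval from 0.65 to 1.02. LAMP1 was at 24.8 and 26.1 FPKM in the control libraries and at 26.0 and 25.4 FPKM in the knockdown libraries, and the interval of its change ran from -0.11 to 0.14. The ratio of LAMP2 to LAMP1 was 0.946 and 0.995 in the control libraries and 1.79 and 1.71 in the knockdown libraries.

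None of the 6 proton pump genes was called. The V-ATPase has a V1 sector in the cytosol that splits ATP and a V0 sector in the membrane that carries protons. The V0 genes ATP6V0E1 (log2 fold change 0.50, 95% interval 0.38 to 0.61) and ATP6V0D1 (0.41, interval 0.26 to 0.55) and the accessory gene ATP6AP1 (0.23, interval 0.12 to 0.33) were higher at an adjusted p-value below 0.05 by limma. The V1 genes were ATP6V1B2 (0.13, interval 0.00 to 0.27), ATP6V1A (0.04, interval -0.11 to 0.18) and ATP6V1H (0.02, interval -0.18 to 0.22), and they did not pass it. ATP6V1A was at 16.6 and 17.3 FPKM in the control libraries and at 17.0 and 17.9 FPKM in the knockdown libraries. These intervals leave out a fold of 2 in either direction for all 6 genes. They measure only the spread between these libraries, which may be technical, and not the choice of scaling. The difference between the V0 and V1 genes was not tested. Of 15 other pump subunits tested, 7 were higher and 4 lower at an adjusted p-value below 0.05 by limma. Over all genes these shares were 29.9% and 37.4%. Both directions included genes of both sectors, so the members do not show a split by sector for the pump as a whole.

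**Figure D3:**
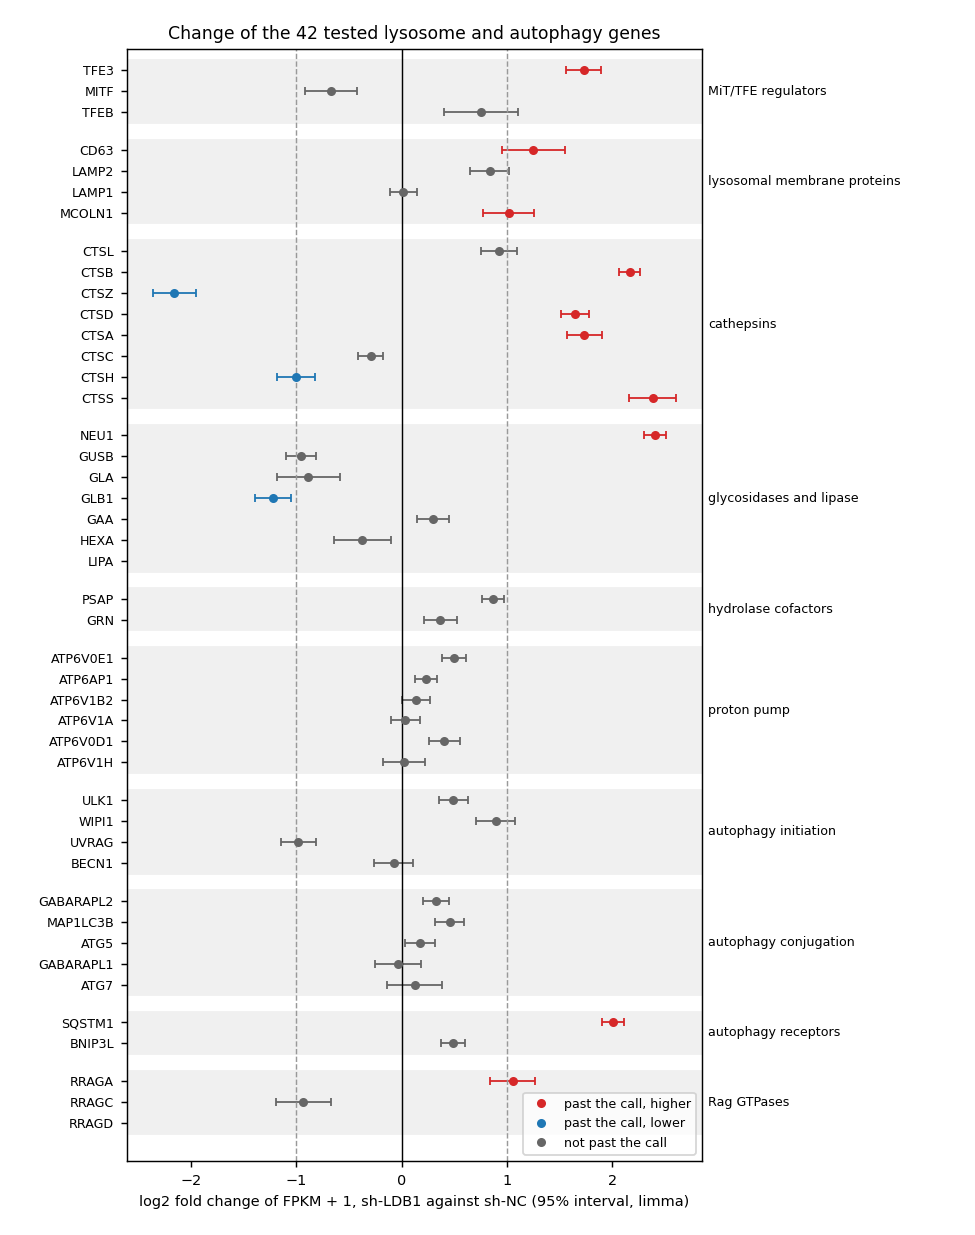
log2 fold change on the FPKM + 1 scale for the 42 tested genes, grouped by role, with 95% intervals from limma (n = 2 libraries per group). Red and blue points were called higher or lower, and grey points were not called, dashed lines mark 1 and -1, and the rows of LIPA and RRAGD are empty because these genes were not tested. The cathepsins spread from -2.16 to 2.38, whereas the proton pump genes lie between 0.02 and 0.50.

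Of the 11 autophagy genes, 1 was called. SQSTM1 (p62), the receptor that binds ubiquitinated cargo and is itself degraded by autophagy, was at 30.6 and 30.2 FPKM in the control libraries and at 123.8 and 126.8 FPKM in the knockdown libraries (log2 fold change 2.01 ± 0.0395, SE, limma adjusted p = 6.77e-05). BNIP3L (NIX), the receptor through which maturing red cells clear their mitochondria, was at 32.3 and 33.5 FPKM in the control libraries and at 46.5 and 46.3 FPKM in the knockdown libraries, a log2 fold change of 0.48.

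The initiation genes went in different directions. ULK1, the kinase that starts autophagy, changed by 0.49 on the log2 scale. WIPI1, which binds the lipid made at the forming vesicle, went from 4.36 and 4.52 FPKM to 8.66 and 9.56 FPKM (0.89), and it passed the threshold with a pseudocount of 0.1 (1.02). UVRAG, a partner of BECN1 in the lipid kinase complex, was at 8.06 and 7.96 FPKM in the control libraries and at 3.68 and 3.45 FPKM in the knockdown libraries. Its log2 fold change of -0.98 lay just under the threshold, with a 95% interval from -1.15 to -0.82, and was -1.15 with a pseudocount of 0.1 and -1.02 without sh-LDB1 replicate 1. BECN1 was at 5.44 and 5.32 FPKM in the control libraries and at 5.29 and 4.81 FPKM in the knockdown libraries, an interval from -0.26 to 0.11. The ratio of UVRAG to BECN1 therefore went from 1.48 and 1.5 to 0.694 and 0.718.

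The conjugation genes, which encode LC3-like proteins and factors that attach them to the vesicle membrane, changed little. MAP1LC3B changed by 0.46, GABARAPL2 by 0.32, ATG5 by 0.18, ATG7 by 0.12 and GABARAPL1 by -0.04 on the log2 scale. The sign of the GABARAPL1 value turned under the same scalings, as did that of BECN1. The reads of MAP1LC3B and GABARAPL1 can be shared with the close copies MAP1LC3B2 and GABARAPL3, which makes their levels uncertain. The ratio of SQSTM1 to MAP1LC3B was 1.45 and 1.36 in the control libraries and 4.01 and 4.32 in the knockdown libraries.

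**Figure D4:**
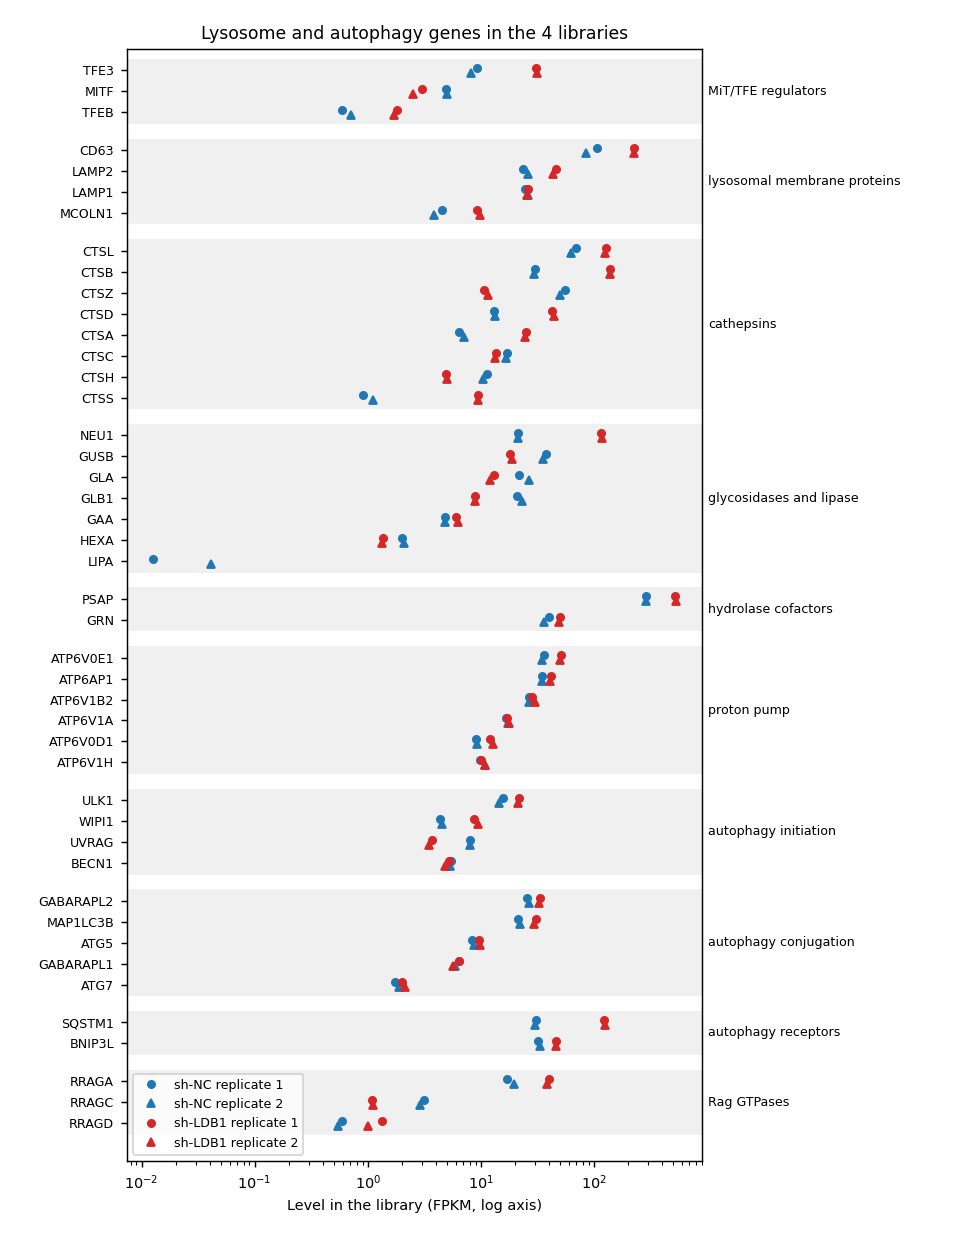
Level of each of the 44 genes in each library in FPKM on a log axis, grouped by role, with sh-NC in blue and sh-LDB1 in red, circles for replicate 1 and triangles for replicate 2. LIPA is drawn only for sh-NC because it was listed at 0 in sh-LDB1. The replicates lie close together, while the groups separate most for CTSS, NEU1, CTSB, CTSZ and SQSTM1.

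The Rag GTPases signal amino acid supply to mTORC1 as heterodimers of RagA or RagB with RagC or RagD. RRAGA was at 17.1 and 19.8 FPKM in the control libraries and at 39.9 and 38.8 FPKM in the knockdown libraries (log2 fold change 1.05 ± 0.0801, SE, limma adjusted p = 0.00055), and the call was lost at 0.95 without sh-NC replicate 1. RRAGC, a partner in the dimer, was at 3.13 and 2.93 FPKM in the control libraries and at 1.09 and 1.13 FPKM in the knockdown libraries. Its mean in the knockdown libraries was 36.5% of the control mean. On the log2(FPKM + 1) scale the change was -0.94, which a pseudocount of 0.1 took to -1.37, past the threshold. RRAGD, the other partner and a known target of the MiT/TFE factors, was under the filter, at 0.597 and 0.548 FPKM in the control libraries and at 1.34 and 1 FPKM in the knockdown libraries, and it was not called when the filter was dropped (0.46, limma adjusted p = 0.0843). The ratio of RRAGC to RRAGD was 5.25 and 5.34 in the control libraries and 0.811 and 1.12 in the knockdown libraries, and that of RRAGA to RRAGC was 5.46 and 6.78 in the control libraries and 36.7 and 34.4 in the knockdown libraries.

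**Figure D5:**
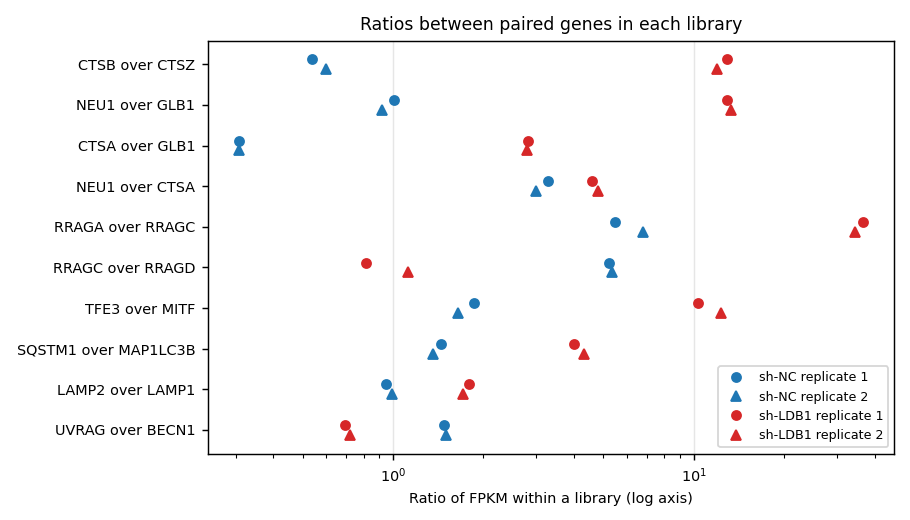
Ratios of the FPKM of paired genes within each library on a log axis, sh-NC in blue and sh-LDB1 in red, circles for replicate 1 and triangles for replicate 2. The groups do not overlap in any of the 10 ratios shown, as they did not for 84.6% of all single genes tested. Several of the pairs join a gene that rose to one that fell or changed little, so the separation is a description only. It is widest for CTSB to CTSZ.

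Other genes of the pathway were taken from 7 lists written from general knowledge, though with earlier results of these data known. Of 187 such genes with values, 162 were tested, 30 were called higher and 4 lower, again against 9.5% and 10.3% of all genes. The median log2 fold change was 0.26. Among other lysosomal hydrolases and cofactors, 14 of 34 tested genes were called higher and 1 lower. LGMN, the asparaginyl endopeptidase that processes cathepsins, had the largest rise of these, from 0.428 and 0.365 FPKM to 8.02 and 8.78 FPKM (log2 fold change 2.75), and passed the filter only through the knockdown libraries. Another of the 14 passed it in the same way, with a control mean of 0.780 FPKM and a knockdown mean of 3.19 FPKM. PPT2, a palmitoyl thioesterase, went from 19.0 in both control libraries to 8.39 and 8.32 FPKM (-1.10), though it shares exons with a readthrough transcript and was at -0.94, under the threshold, at equal summed FPKM.

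Among other membrane and sorting proteins, 7 of 25 were called higher and 0 lower. The largest rise there was that of SLC17A5 (sialin), which carries sialic acid out of the lysosome, from 3.86 and 3.73 FPKM to 28.0 and 28.9 FPKM (2.62). Among other proton pump subunits, only TCIRG1, the V0 subunit a3 of osteoclasts and granulocytes, was called out of 15, at 27.0 FPKM in both control libraries and at 53.6 and 57.1 FPKM in the knockdown libraries (1.01, and 0.96 without sh-LDB1 replicate 2).

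Among other autophagy genes, 4 of 31 were called higher and 1 lower. ATG16L2, a relative of the conjugation scaffold ATG16L1, went from 1.74 FPKM in both control libraries to 15.3 and 16.2 FPKM (2.61). ATG10, the enzyme that joins ATG12 to ATG5, went from 6.34 and 5.65 FPKM to 1.99 and 2.10 FPKM (-1.20). Of 13 other autophagy receptors, 1 was called, NCOA4, which delivers ferritin to the lysosome, from 81.6 and 84.9 FPKM to 40.8 and 41.2 FPKM (-1.0). That value sat on the threshold, and the call was lost at equal summed FPKM (-0.83), with a median of ratios (-0.91), without sh-NC replicate 2 (-0.98) and without sh-LDB1 replicate 1. Of 16 genes for fusion of autophagosome and lysosome, 2 were called higher and 0 lower, led by the SNARE YKT6, from 26.5 and 23.3 FPKM to 101.4 and 98.7 FPKM (1.97).

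Of 28 genes for nutrient signalling at the lysosome, 2 were called higher and 1 lower. NPRL2, a subunit of the GATOR1 complex that inactivates RagA, went from 6.74 and 6.71 FPKM to 17.3 and 18.4 FPKM (1.29). SLC7A5, the leucine transporter whose reads may be shared with pseudogenes, went from 66.2 and 64.6 FPKM to 17.2 and 16.7 FPKM (-1.89). These 10 genes were named because they were called with the largest change of their list, so their values are a description.

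The balance of directions depends on how libraries are scaled. Setting every library to the same summed FPKM raised the median of all genes by 0.14 on the log2 scale and the share of higher calls from 48.0% to 61.5%. Under that scaling 14 members were called higher and 2 lower. The members gained were LAMP2, CTSL, PSAP and WIPI1, and CTSH was lost. The median of the members was then 0.51 and that of all genes 0.06.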

How the data were processed

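RNA-seq of 4 libraries was analysed, 2 sh-NC and 2 sh-LDB1, grouped by the sample labels. After filtering, the authors aligned the reads (HISAT2 2.0.5 and hg38 in the submitters' processing notes) and deposited FPKM per gene and library, with replicates not pooled. The annotation, the counter and the use of strand are not given in the sources used here. The authors tested with DESeq2, which needs counts. Here limma 3.58.1 (R 4.3.3) was used with the study's fold thresholds on log2(FPKM + 1), with eBayes and a trend, over 13300 genes averaging 1 FPKM or more. P-values were adjusted by Benjamini-Hochberg over all of them. Fold changes on this scale understate those of low genes.

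Reads were recovered from the FPKM steps: whole reads, to within 0.01, were found for 98.2% of genes, and the fitted length was within 10% of GENCODE release 44 for 87.2% of these. Where the deposited length is unclear, reads may be off by a whole factor. The recovery and the limma fit were tested on simulated data. In that of the fit, 166 of 187 changed genes were called in the right direction, as were 6 of 12657 unchanged genes in error. The simulation changed a far smaller share of genes than the 19.8% called here, so it does not cover a shift of that extent. Python 3.11.15, numpy 2.4.6 and pandas 2.3.3 served the other steps. Sequences came from RefSeq.

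The members, lists and motifs were chosen with earlier results of these data known. Named genes were the 44 members, LDB1, markers, and from each pathway list the called genes with the largest rise and fall. The protein sequences planned for 3 autophagy genes were not used here.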

Additional observations from a re-analysis of the deposited data

How the results depend on the processing

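Of the tested members, 38 had at least 200 reads in every library, and depth limits TFEB, CTSS, RRAGC and UVRAG beside the untested LIPA and RRAGD. Of the 13 called members, 10 stayed past the call under all 15 alternatives and none turned direction. The exceptions were CTSH, MCOLN1 and RRAGA. A called gene could not fail the alternative without a fold threshold, and the alternatives that changed only the filter left its fold unchanged. Of the 10 other pathway genes named, examined one by one only after seeing the data, PPT2, TCIRG1 and NCOA4 lost the call under at least 1 alternative. Without a fold threshold 25 members were higher and 10 lower, as were 3983 and 4978 of all genes and 85 and 34 of the pathway-list genes. The number of lower members was 5 with a pseudocount of 0.1, with 0.01 and with voom on the recovered reads, and 6 with treat against a fold of 1.5, and the lower pathway-list genes were 7 under each of these and 2 at equal summed FPKM. With a mean of at least 5 FPKM, 710 of all genes were higher, since fewer were tested. The median of the members was 0.51 at equal summed FPKM and 0.44 with a median of ratios. Leaving out each library gave 9 to 10 higher and 3 to 4 lower members, with a lone library assumed to vary like the others. Among members that were not called, the sign turned for BECN1 (0.068 and 0.0071) and GABARAPL1 (0.11 and 0.049) under these scalings, and on leaving out a library for LAMP1 (-0.019 to 0.049), ATP6V1A (-0.0010 to 0.073), ATP6V1H (-0.045 to 0.082) and GABARAPL1 (-0.11 to 0.039). The cause was not tested. A replicate block gave 10 higher and 3 lower members and changed no call of a member. The labels do not say what a shared number means, and same-numbered libraries did not deviate together (correlation over genes 0.0196).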
